A study of Mus musculus with 6 samples.

Results

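Lysosomal genes were followed in the spinal cord of wild-type mice whose cord had been bruised at T10 (contusion) 6 weeks earlier. Genes were chosen by gene symbol for their known roles, with earlier results of these data known. The set held 43 of the 56859 genes in the deposited table of read counts. It comprised 19 genes for acid hydrolases and their protein cofactors, 6 for lysosomal membrane proteins, 17 for subunits of the proton pump, and Tfeb, which encodes a transcription factor of lysosomal genes. All 43 were found in the table and all 43 passed the filter on low counts. Total RNA had been isolated from spinal cord tissue with magnetic beads and sequenced. In the AZ876 group (n = 3), mice with this injury had been injected intraperitoneally with AZ876, a compound that activates liver X receptors (LXR), at 5 mg/kg once a day for 1 week. Below, "with AZ876" and "under AZ876" name this group and do not say that tissue was taken during dosing. In the injury group (n = 3), mice had the same injury and no AZ876, and per the labels' protocols control animals were given the solvent alone. No uninjured tissue was analysed here, and the labels do not say whether each replicate was a different mouse.

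Lysosomes are acidic compartments in which enzymes break down proteins, glycans, glycolipids and stored fat. The V-ATPase acidifies them: its cytosolic V1 part splits ATP and turns a rotor that drives protons through the membrane-bound V0 part. Membrane glycoproteins such as the LAMPs shield the bounding membrane. Phagocytes that take up myelin debris after injury depend on this compartment, and neurons also use the V-ATPase to load synaptic vesicles with transmitter. TFEB and its relatives switch on many lysosomal genes by binding a promoter element built around the letters CACGTG.

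Libraries held between 14067649 and 20211175 counts, and the 43 genes together took 1.18% to 1.72% of them. Levels are given as CPM, each count divided by the TMM-scaled library total in units of 1e+06. AZ876 replicate 1 and injury replicate 3 stood between the other libraries on the first principal component of all genes, with scores of −7.17 and 6.31, between −40.6 and −52.3 for the remaining injury libraries and 44.2 and 49.5 for the remaining AZ876 libraries. Tissue samples hold several cell types, so fewer cells of a type and less RNA per cell cannot be told apart. Markers of neurons, glia, phagocytes and fibroblasts were all detected, and none of those lists had a gene at 0 counts in any library.

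The promoter letters that TFEB and its relatives bind are shown first, because they are shared by members of all 3 protein classes. A window from 250 bases before to 50 bases after each gene start was available for 39 of the 43 genes, all but Atp6v1b2, Atp6v1c1, Atp6v1g1 and Atp6v1h. The core CACGTG, which reads the same on both strands, stood in the window of 12 of these 39 genes, or 30.8%, against 8.09% of 27025 genes with such a window. The longer form TCACGTGA, which contains the core and also reads the same on both strands, stood in 6 of the 39, or 15.4%, against 1.12% of all. In Atp6v0d1 this form crossed the gene start. In Atp6v0e it lay past the start, as did a further copy in Ctsa, so these are not among the stretches below. By class, the core was in 6 of 19 hydrolase and cofactor genes, 2 of 6 membrane protein genes and 4 of 13 pump genes. The stretches below are from RefSeq sequence on GRCm38.p6, 5′ to 3′ on the strand of the gene, with each core or longer form in capitals. They lie upstream of the gene start and were picked as those with the longer form or with more than 1 core:
Gla, chrX:134601174-134601252, minus strand: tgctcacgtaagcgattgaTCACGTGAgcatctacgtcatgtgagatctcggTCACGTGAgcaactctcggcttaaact
Ctsa, chr2:164833741-164833772, plus strand: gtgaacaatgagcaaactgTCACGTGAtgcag
Mcoln1, chr8:3500428-3500499, plus strand: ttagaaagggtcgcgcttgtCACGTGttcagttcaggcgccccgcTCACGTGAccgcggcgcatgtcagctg
Lamp1, chr8:13159080-13159160, plus strand: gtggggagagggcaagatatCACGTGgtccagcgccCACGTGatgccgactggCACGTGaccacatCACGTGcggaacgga
Atp6v1a, chr16:44139365-44139410, minus strand: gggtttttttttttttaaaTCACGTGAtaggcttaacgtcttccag
Atp6v0b, chr4:117887330-117887385, minus strand: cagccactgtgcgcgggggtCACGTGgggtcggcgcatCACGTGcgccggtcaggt

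In Lamp1 the 4 cores began 61 to 15 bases before the gene start, in Gla the cores of the 2 longer forms began 227 and 194 bases before it, and in Ctsa the core shown began 12 bases before it. Members with and without the core spanned the same directions between the groups: of the 12 with it, 7 had a log2 fold change above 0 and 5 below, with a median of 0.27, and of the 27 without it, 19 were above and 8 below, with a median of 0.19. A match in letters is a description of the window and no measure of binding.

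The 43 genes differed widely in level. Divided by the length of their exons in kilobases, taken from GENCODE M21, the highest was Psap, the precursor of the saposins that present glycolipids to hydrolases, at a mean of 1534 CPM per kb and a range over the 6 libraries of 1130 to 2184. Laptm4a, a small multi-pass membrane protein gene, followed at 348 CPM per kb (268 to 434), and Lamp1, the gene of a main lysosomal membrane glycoprotein, at 301 CPM per kb (245 to 394), so these neighbours overlapped. At the low end stood Sgsh, a sulfatase gene of heparan sulfate breakdown, at 2.79 CPM per kb (1.97 to 3.67), Manba, the beta-mannosidase gene, at 5.19 CPM per kb (3.63 to 6.81), and Tfeb at 6.58 CPM per kb (5.08 to 7.79).

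**Figure D1:**
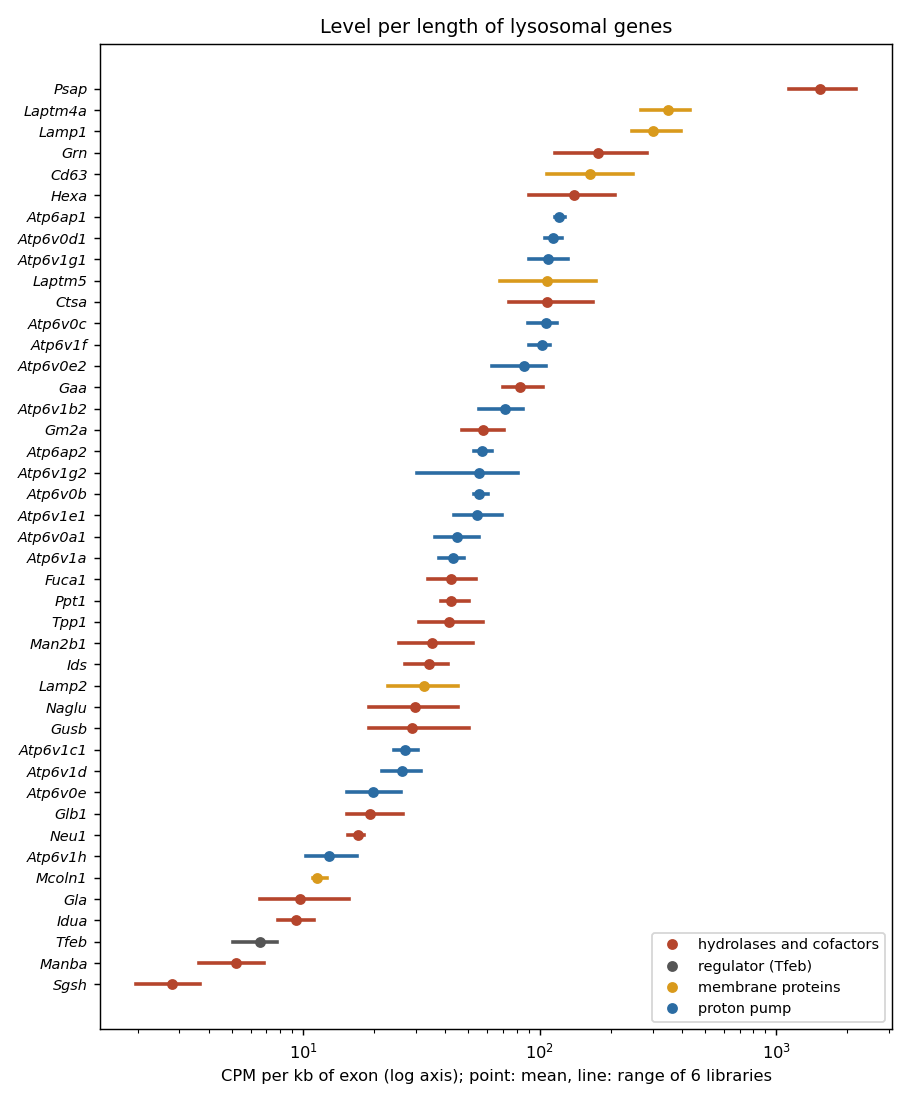
Level of each of the 43 genes in CPM per kb of exon on a log axis, where points are means over the 6 libraries and lines run from the lowest to the highest library. Psap stands apart at 1534 CPM per kb, and Sgsh is lowest at 2.79 CPM per kb.

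Pump subunit genes took a narrower part of this scale, from Atp6v1h, a regulatory V1 subunit gene, at 12.9 CPM per kb to Atp6ap1, the gene of an accessory protein of the V0 part, at 120.2 CPM per kb. Next to Atp6ap1 in this order were Atp6v0d1, the gene of the widely expressed d subunit, at 114 CPM per kb (106 to 125), and Atp6v1g1, a widely expressed G subunit gene, at 109 CPM per kb (89.9 to 131), whose ranges overlapped with each other. Atp6v0c, which encodes the proton-carrying ring subunit, was at 107 CPM per kb (89.4 to 119). Of 9 further pump genes outside the set, 5 did not pass the filter on low counts, and 3 of these 5, Atp6v1b1, Atp6v1e2 and Atp6v1g3, had at most 2 counts in any library.

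Per the series' design text, early AZ876 treatment was profiled for lasting effects on lipid metabolism, and the genes compared here serve the compartment that digests lipid. Genes for hydrolases and membrane proteins had higher mean levels with AZ876 and genes for pump subunits lower ones, but no member passed the test. Of the 19 hydrolase and cofactor genes 17 had a log2 fold change above 0, with a median of 0.37. The membrane protein genes had 5 of 6 above 0, with a median of 0.47. For the pump the picture turned: 13 of 17 were below 0, with a median of −0.12. Over all 17599 genes tested the median was 0.00 and 49.5% were below 0.

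By edgeR's quasi-likelihood test, 0 of the 43 members and 0% of all genes passed an adjusted p of 0.05 (Benjamini-Hochberg, all genes tested together). The members' adjusted p-values ran from 0.330 to 0.999. DESeq2 called 0 members too, where it called 0.716% of all genes higher and 0.29% lower, and limma-voom called 0. At an unadjusted p under 0.05 edgeR had 4 members higher, or 9.30%, and 2 lower, or 4.65%, close to the 7.98% and 6.74% of all genes. Libraries of the groups did not overlap for 0 members on the higher side and 1 on the lower side (2.33%), against 10.2% and 8.64% of all genes.

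**Figure D2:**
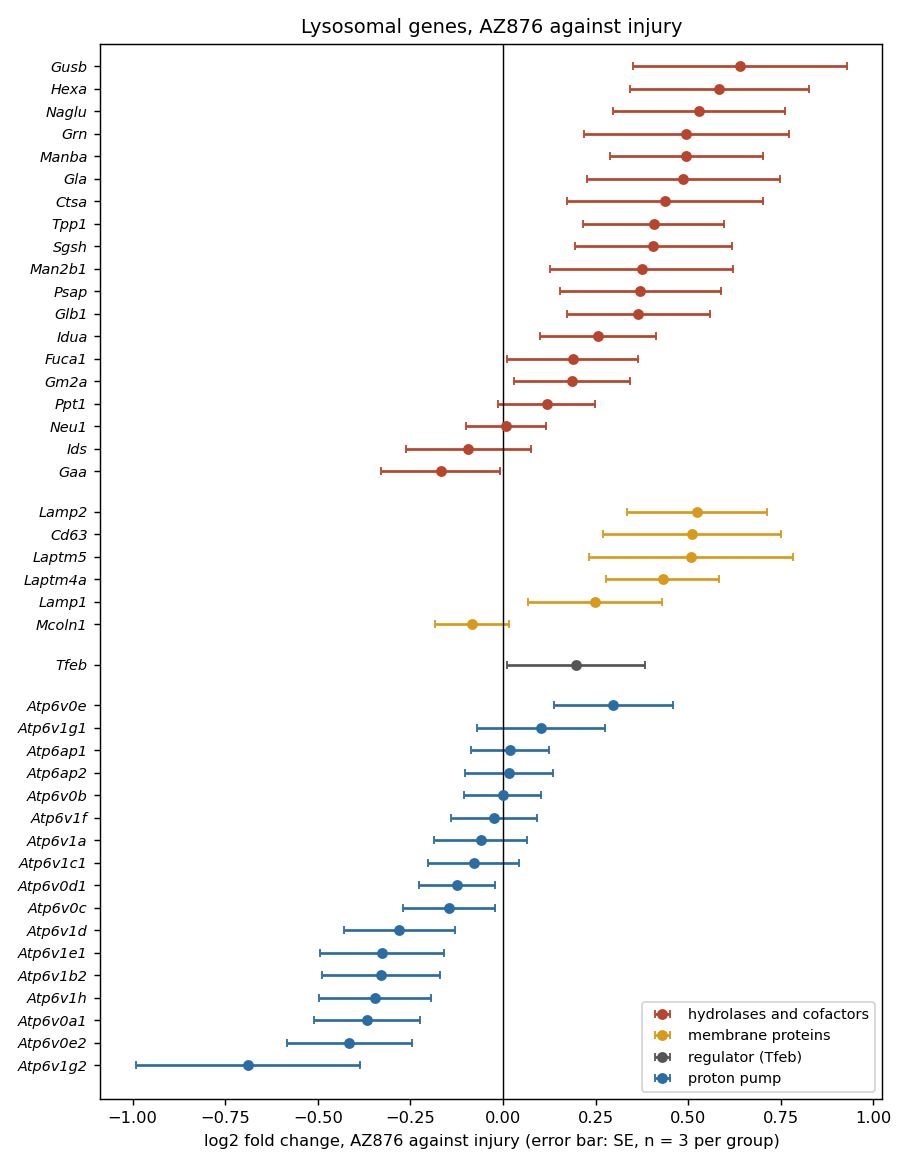
Log2 fold change of AZ876 against injury for each of the 43 genes by class, with its SE (n = 3 per group). Hydrolases and membrane proteins lie mostly right of 0, with medians of 0.37 and 0.47, and pump genes mostly left of it, with a median of −0.12.

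AZ876 replicate 1 lay within the range of the injury libraries for the mean score of each of the 3 classes, the score being the mean log2 CPM of the genes after each was centred on its mean over the 6 libraries. For hydrolases and cofactors the scores were −0.32, −0.15 and 0.02 in injury replicates 1, 2 and 3, and −0.16, 0.19 and 0.42 in AZ876 replicates 1, 2 and 3. Membrane proteins had −0.37, −0.16 and 0.01 with injury and −0.14, 0.22 and 0.44 with AZ876. AZ876 replicates 2 and 3 were thus above every injury library in both classes. The pump had 0.10, 0.21 and −0.06 with injury and 0.05, −0.18 and −0.11 with AZ876, so the same 2 libraries were the lowest there. Subtracting the pump score from the hydrolase score gave −0.42, −0.35 and 0.08 with injury and −0.21, 0.37 and 0.53 with AZ876, and the groups again overlapped through AZ876 replicate 1 and injury replicate 3.

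AZ876 replicate 3 was the highest of the 6 libraries for 15 of 19 hydrolase and cofactor genes and 4 of 6 membrane protein genes. Injury replicate 1 was the lowest for 15 of 19 and 5 of 6. Highest for the pump was an injury library, replicate 1 or 2, for 12 of 17 genes, and lowest was AZ876 replicate 2 or 3 for 12 of 17. The pump was mixed, as AZ876 replicate 3 was the highest for 4 of its genes and injury replicate 1 the lowest for 3.

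Without AZ876 replicate 1, a choice made after the values were seen for counts of overlap, both remaining AZ876 libraries were above all injury libraries for 15 of 19 hydrolase and cofactor genes (78.9%) and 5 of 6 membrane protein genes (83.3%), against 24.3% of all genes. They were below all injury libraries for 10 of 17 pump genes (58.8%), against 23.7% of all genes, and so were 2 hydrolase genes, Gaa and Ids. With injury replicate 3 left out instead, 5 of 19 hydrolase and cofactor genes had groups that did not overlap on the higher side. That was close to the 22.7% of all genes. On the higher side the groups also did not overlap for 3 of 6 membrane protein genes. On the lower side they did not overlap for 10 of 17 pump genes, against 20.6% of all genes. Without AZ876 replicate 1, edgeR had 13 hydrolase and cofactor genes and 5 membrane protein genes higher at an unadjusted p under 0.05. In that fit 7 pump genes were lower and 1 higher, where 11.6% of all genes were higher and 13.8% lower. The adjusted test of the same fit called 1 member, Atp6v1g2, where 0.351% of all genes were called higher and 1.64% lower. Without injury replicate 3 the unadjusted counts were 4 of 19, 3 of 6 and 7 of 17, where 12.1% of all genes were higher and 9.98% lower. Leaving out any 1 of the other 4 libraries gave 0 members in either direction, where 3.17% to 5.1% of all genes were higher and 2.26% to 3.81% lower.

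**Figure D3:**
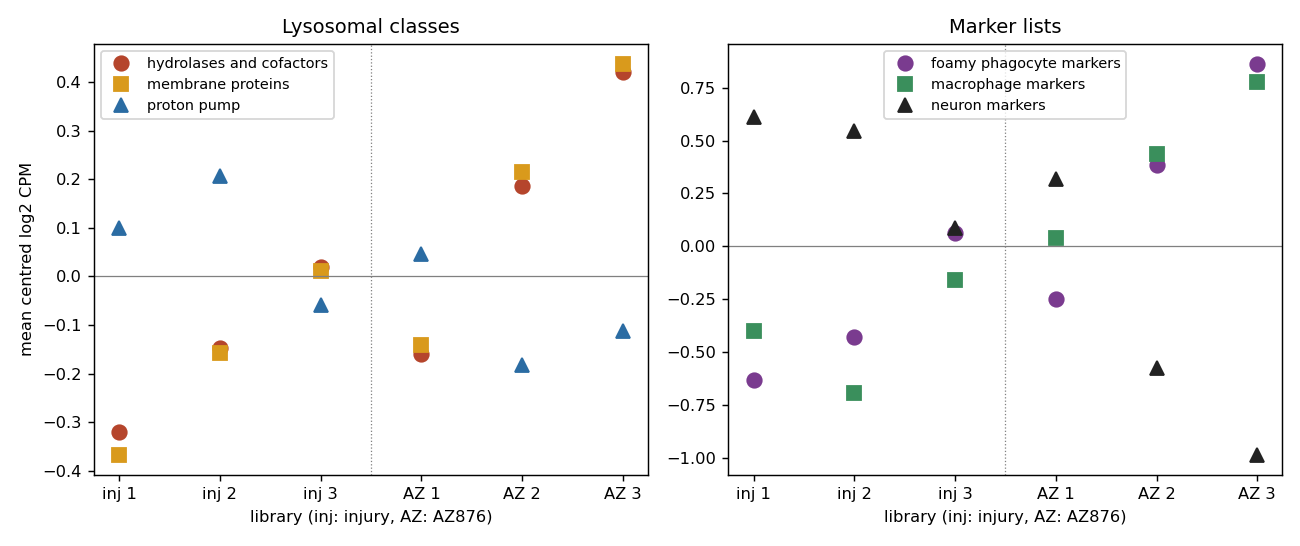
Mean centred log2 CPM of the lysosomal classes (left) and of marker lists (right) in each of the 6 libraries, with a dotted line between injury and AZ876. Hydrolase and membrane protein scores run from −0.32 and −0.37 in injury replicate 1 to 0.42 and 0.44 in AZ876 replicate 3, and the neuron score from 0.61 down to −0.99 in the same libraries.

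Marker lists of several cell types moved with these classes from library to library. Neuron markers had 14 of 14 genes below 0, with scores of 0.61, 0.55 and 0.09 with injury and 0.32, −0.58 and −0.99 with AZ876, and a summed level of 5706 to 7170 CPM with injury and 2373 to 5298 CPM with AZ876. Nefm, a neurofilament gene, averaged 1453 ± 145 CPM in injury libraries and 722 ± 265 CPM under AZ876 (SD, n = 3 each), and DESeq2 called it lower (adjusted p of 0.0427) where edgeR did not (0.330). Foamy phagocyte markers, which share no gene with the set, had 12 of 12 above 0, with scores of −0.63, −0.43 and 0.06 with injury and −0.25, 0.39 and 0.86 with AZ876, and a summed level of 15824 to 25090.0 CPM and 19209 to 38717 CPM. Clec7a, a receptor gene of activated microglia, averaged 80.5 ± 31.4 CPM in injury libraries and 175 ± 70.3 CPM under AZ876. Macrophage markers had 11 of 12 above 0, at 1673 to 3377 CPM in sum with injury and 2530.0 to 7099 CPM with AZ876. Most of this sum was Lyz2, at means of 1866 CPM with injury and 3957 CPM with AZ876. Lyve1 was the gene below 0, at a log2 fold change of −0.41, and Cd163 was at 0.07. Homeostatic microglia markers had 8 of 10 above 0, at 831 to 1238 CPM with injury and 956 to 1506 CPM with AZ876. The part of these cell types in the lysosomal values was not tested.

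Fibroblast markers had 8 of 8 above 0 (981 to 2338 CPM in sum with injury, 2878 to 3810 CPM with AZ876), Schwann cell markers 7 of 8 (17283 to 18914 CPM, 14411 to 17976 CPM, mostly Mbp, which oligodendrocytes share) and endothelial markers 6 of 7 (398 to 449 CPM, 457 to 569 CPM). Oligodendrocyte markers had 1 of 10 above 0 (27546 to 29924 CPM, 21606 to 26728 CPM) and astrocyte markers 4 of 8 (11439 to 15422 CPM, 10999 to 16981 CPM).

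Among the hydrolases, Hexa and Manba had the smallest p-values. Hexa, listed as ENSMUSG00000025232 on the plus strand of chromosome 9 (59446823 to 59472392, coordinates as the table lists them, with no build stated), encodes the alpha subunit of beta-hexosaminidase, which trims gangliosides. It was at 179, 211 and 282 CPM in injury replicates 1, 2 and 3 and at 238, 353 and 417 CPM in AZ876 replicates 1, 2 and 3. The last 2 of these were the highest of all, and AZ876 replicate 1 lay below injury replicate 3. Its mean was 224 ± 52.6 CPM after injury alone and 336 ± 90.8 CPM under AZ876 (SD, n = 3 each), a log2 fold change of 0.58 ± 0.24 (SE, edgeR adjusted p = 0.334).

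Manba (ENSMUSG00000028164, plus strand of chromosome 3, 135191372 to 135277165) encodes beta-mannosidase, which removes mannose from the core of N-glycans. It overlaps the pseudogene Oaz2-ps, whose mean count was 7.01% of its own. It stood at 25.3, 26.7 and 38.2 CPM with injury and 33.5, 47.5 and 46.0 CPM with AZ876. Again AZ876 replicate 1 was the only treated library within the injury range. The log2 fold change was 0.50 ± 0.21 (SE, edgeR adjusted p = 0.334).

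The remaining hydrolases above 0 belong to several breakdown routes. Gusb, the beta-glucuronidase gene, had the largest log2 fold change of the 43 genes, 0.64 ± 0.29 (SE), at 103 ± 16.0 CPM after injury alone and 160.4 ± 65.7 CPM under AZ876 (SD, n = 3 each). Without AZ876 replicate 3 it was 0.30, below the 0.40 of Hexa and the 0.43 of Manba in the same fit. For the breakdown of heparan sulfate, Naglu, Sgsh, Idua and Gusb were above 0 (0.53, 0.41, 0.26 and 0.64 on the log2 scale), and Ids, an iduronate sulfatase gene, was at −0.09. Hexa and Gla, genes of glycolipid breakdown, were at 0.58 and 0.49 and Glb1, the lysosomal beta-galactosidase gene, at 0.36. Ctsa, whose protein stabilises Glb1 and Neu1 in a complex, was at 0.44, whereas Neu1, the sialidase gene, was at 0.01. Glycoprotein genes Man2b1 (an alpha-mannosidase) and Fuca1 (a fucosidase) were at 0.37 and 0.19, and Tpp1 and Ppt1, genes of a peptidase and a thioesterase that are lost in childhood neuronal storage diseases, at 0.41 and 0.12. Gaa, the acid alpha-glucosidase gene that digests glycogen, was lowest of the class at −0.17. None of these passed the test.

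Cofactor genes, which encode no enzyme, were all above 0. Psap was at 3671 ± 572 CPM after injury alone and 4747 ± 1187 CPM under AZ876 (SD, n = 3 each), Grn, the progranulin gene, at 510 ± 91.1 and 719 ± 266 CPM, and Gm2a, the gene of a ganglioside activator, at 223 and 254 CPM on average. Their log2 fold changes were 0.37, 0.50 and 0.19, and their score was highest in AZ876 replicate 3 and lowest in injury replicate 1.

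In the membrane protein class, Lamp2 and Laptm4a had the smallest p-values. Lamp2 (ENSMUSG00000016534, minus strand of chromosome X, 37490234 to 37545331) encodes a membrane glycoprotein that also takes part in autophagy. It was at 218, 240 and 305 CPM in injury replicates 1, 2 and 3 and at 290.2, 373 and 433 CPM in AZ876 replicates 1, 2 and 3, with AZ876 replicate 1 below injury replicate 3. Its mean was 1.44 times that of injury, a log2 fold change of 0.52 ± 0.19 (SE, edgeR adjusted p = 0.330).

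Laptm4a (ENSMUSG00000020585, plus strand of chromosome 12, 8971598 to 8988742) stood at 474, 500 and 599.6 CPM with injury and 599.6, 769 and 755 CPM with AZ876. Injury replicate 3 and AZ876 replicate 1 were level, and the other AZ876 libraries were above both. Its log2 fold change was 0.43 ± 0.15 (SE, edgeR adjusted p = 0.330). Cd63, a tetraspanin gene of late endosomes, was at 497 ± 100.1 and 707 ± 204 CPM, and Laptm5, a gene of blood-derived cells and microglia, at 337 and 479 CPM on average, with log2 fold changes of 0.51 each. Lamp1 was at 0.25 and Mcoln1, the gene of a calcium release channel of the lysosome, at −0.08. Mcoln1 was nearly level over the libraries, from 83.5 to 95.3 CPM.

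Tfeb was low throughout: 34.8, 28.8 and 40.8 CPM with injury and 31.5, 43.8 and 44.2 CPM with AZ876. AZ876 replicates 2 and 3 were the highest libraries, and AZ876 replicate 1 was below 2 of the injury libraries. Its log2 fold change was 0.20 ± 0.19 (SE, edgeR adjusted p = 0.601).

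**Figure D4:**
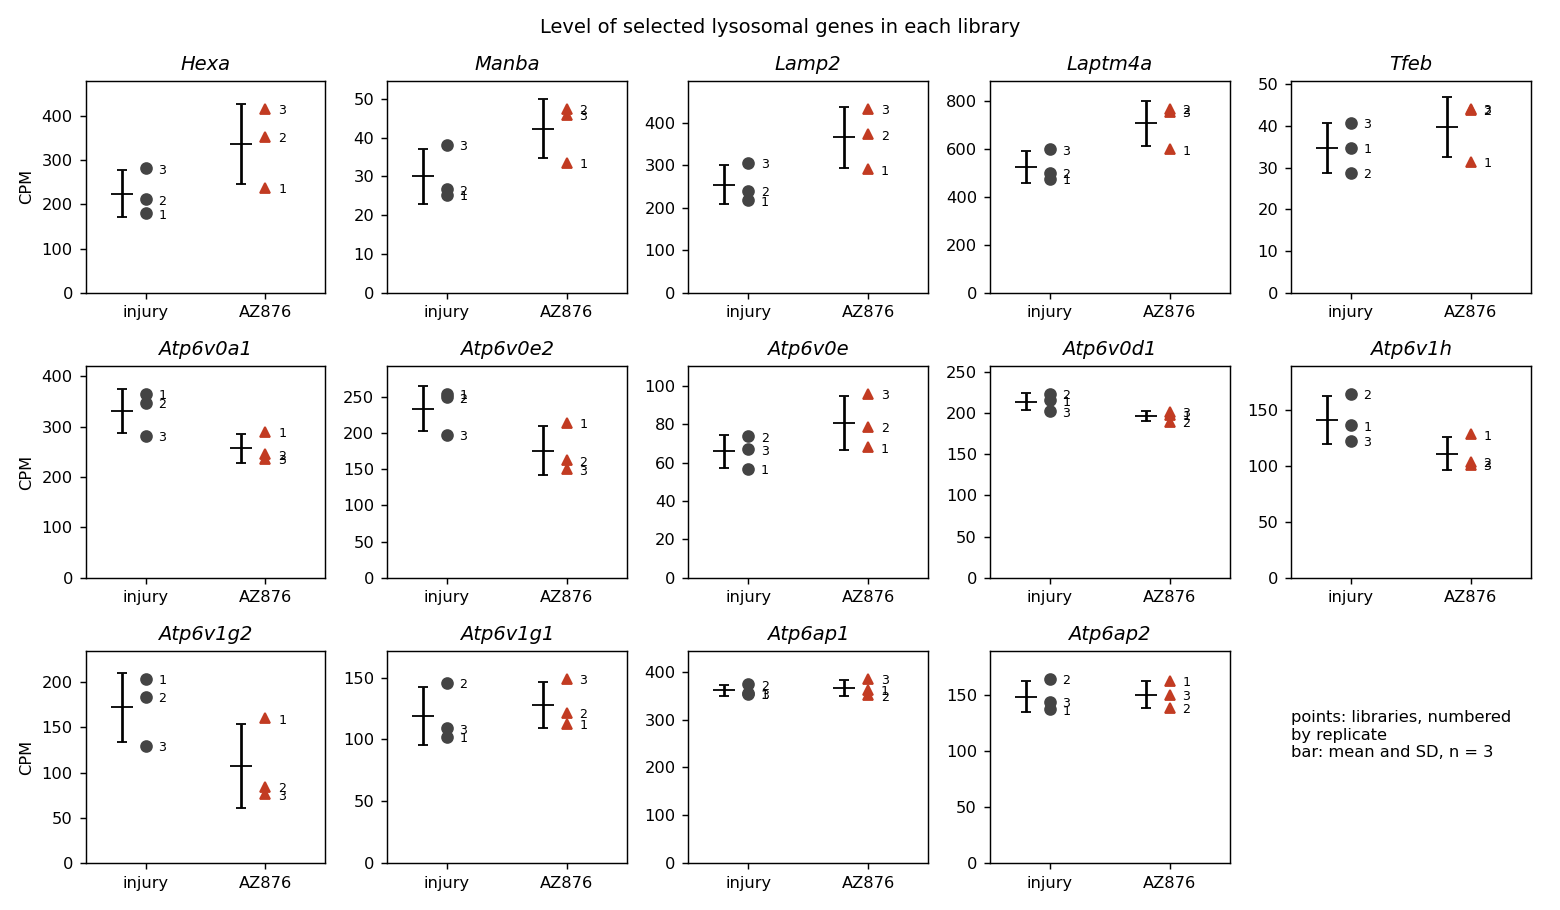
CPM of 14 lysosomal genes in each library, drawn from 0, with replicate numbers beside the points and the mean and SD of each group (n = 3). AZ876 replicate 1 lies within the injury range for Hexa, Manba, Lamp2, Atp6v0a1, Atp6v0e2 and Atp6v1g2, while Atp6ap1 spans only 351 to 386 CPM over the 6 libraries.

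In the membrane-bound V0 part of the pump, Atp6v0a1 and Atp6v0e2 were lower with AZ876. Atp6v0a1 (ENSMUSG00000019302, plus strand of chromosome 11, 100900278 to 100954545) encodes a form of the large a subunit that is abundant in neurons and on synaptic vesicles. It was at 365, 347 and 282 CPM in injury replicates 1, 2 and 3 and at 289, 245 and 236 CPM in AZ876 replicates 1, 2 and 3. Groups overlapped only in that AZ876 replicate 1 was above injury replicate 3. The log2 fold change was −0.37 ± 0.14 (SE, edgeR adjusted p = 0.330).

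Atp6v0e2 (ENSMUSG00000039347, plus strand of chromosome 6, 48514549 to 48518735) encodes a form of the small e subunit that is enriched in brain. It stood at 254, 249.5 and 198 CPM with injury and 214, 163 and 149.9 CPM with AZ876, giving a log2 fold change of −0.41 ± 0.17 (SE, edgeR adjusted p = 0.332). Atp6v0e, the widely expressed form of the same subunit, was the pump gene with the highest log2 fold change, 0.30 ± 0.16 (SE), at 56.7, 73.9 and 67.0 CPM with injury and 68.1, 78.8 and 96.0 CPM with AZ876. AZ876 replicates 2 and 3 were thus the highest for Atp6v0e and the lowest for Atp6v0e2.

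Atp6v0d1, named because it was the only member whose groups did not overlap, was at 216, 224 and 202 CPM with injury and 198, 189.5 and 201 CPM with AZ876. The gap between injury replicate 3 and AZ876 replicate 3 was small, and the log2 fold change was −0.12 ± 0.10 (SE, edgeR adjusted p = 0.540). Atp6v0c was at −0.15 and Atp6v0b, which encodes another ring subunit, at −0.00.

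In the V1 part, Atp6v1g2 had the lowest log2 fold change of the 43 genes. It encodes the brain form of the G subunit of the stalk (ENSMUSG00000024403, plus strand of chromosome 17, 35452636 to 35457743). Its level was 204, 184 and 129.7 CPM in injury replicates 1, 2 and 3 and 160.3, 84.5 and 76.1 CPM in AZ876 replicates 1, 2 and 3. AZ876 replicate 1 sat with the injury libraries and the other treated libraries were well below them. The mean was 172 ± 38.3 CPM after injury alone and 107 ± 46.4 CPM under AZ876 (SD, n = 3 each), a log2 fold change of −0.69 ± 0.30 (SE, edgeR adjusted p = 0.342). This is the member that edgeR called without AZ876 replicate 1, at a log2 fold change of −1.10 and an adjusted p of 0.0456.

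Atp6v1h (ENSMUSG00000033793, plus strand of chromosome 1, 5140241 to 5232752), the regulatory H subunit gene, which overlaps Rgs20 (8.06% of its count), stood at 136, 164 and 122 CPM with injury and 128, 104 and 101 CPM with AZ876, with AZ876 replicate 1 above injury replicate 3. Its log2 fold change was −0.35 ± 0.15 (SE, edgeR adjusted p = 0.343). Of the other V1 genes, Atp6v1b2, which encodes the B subunit found in brain and most tissues, was at −0.33, and the stalk genes Atp6v1e1 and Atp6v1d were at −0.33 and −0.28. Atp6v1a, the gene of the catalytic subunit, was at −0.06, Atp6v1c1 at −0.08 and Atp6v1f at −0.02. Within the V1 part the genes therefore ranged from −0.69 to 0.10, the highest being Atp6v1g1.

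The widely expressed G subunit gene Atp6v1g1 had a smaller difference between means: 102, 146 and 109 CPM with injury and 113, 122 and 149 CPM with AZ876, giving a log2 fold change of 0.10 ± 0.17 (SE). The accessory subunit genes had means close to each other in both groups. Atp6ap1 was at 355, 374 and 355 CPM with injury and 363, 351 and 386 CPM with AZ876, giving a log2 fold change of 0.02 ± 0.11 (SE). Atp6ap2, also known as the prorenin receptor gene, was at 138, 165 and 144 CPM with injury and 163, 139 and 150.5 CPM with AZ876, giving a log2 fold change of 0.02 ± 0.12 (SE). The groups of both genes overlapped throughout.

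The ratio of the brain form to the widely expressed form of a subunit was taken within each library, so it does not depend on how libraries are scaled. Counts of Atp6v1g2 were 2.00, 1.26 and 1.19 times those of Atp6v1g1 in injury replicates 1, 2 and 3 and 1.42, 0.695 and 0.511 times in AZ876 replicates 1, 2 and 3. The brain form was thus counted less often than the other only in AZ876 replicates 2 and 3. These counts were not divided by exon length, 2.51 kb for Atp6v1g2 and 1.135 kb for Atp6v1g1. A ratio of 1 therefore does not mark equal levels. Per kb, the means over the 6 libraries were 55.7 CPM for Atp6v1g2 and 108.7 CPM for Atp6v1g1. On the log2 scale the mean ratio was 0.53 ± 0.41 with injury and −0.33 ± 0.76 with AZ876 (SD, n = 3 each), a difference of −0.86. A two-sided exact permutation test gave p = 0.3, where 0.1 is the smallest that 3 against 3 libraries allow.

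Atp6v0e2 over Atp6v0e was 4.49, 3.38 and 2.95 with injury and 3.15, 2.06 and 1.56 with AZ876. AZ876 replicate 1 was again within the injury range and the other treated libraries were below it. The mean log2 ratio was 1.83 ± 0.31 with injury and 1.11 ± 0.51 with AZ876 (SD, n = 3 each), a difference of −0.71 with an exact permutation p of 0.2. With both ratios compared, neither could reach a p of 0.05 in this design.

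**Figure D5:**
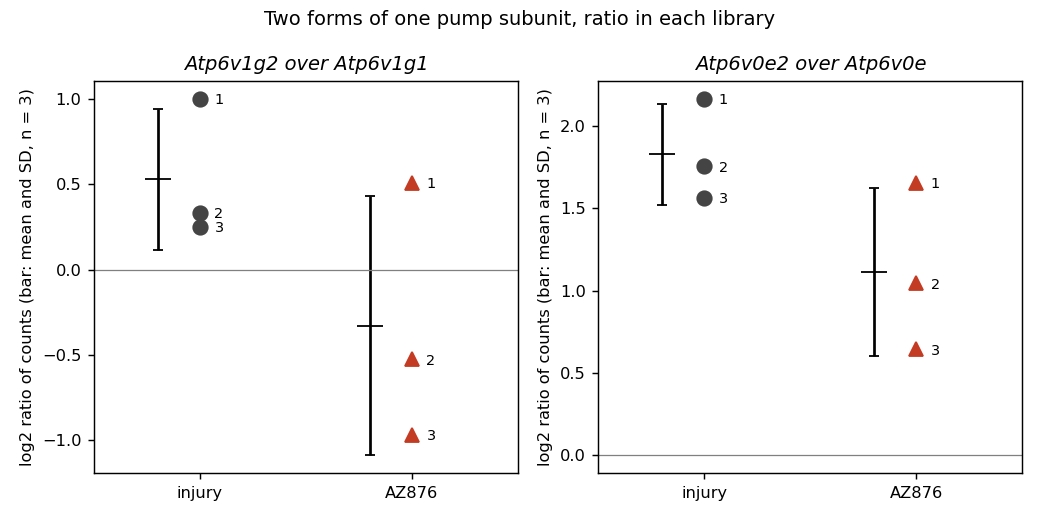
Log2 ratio of counts of Atp6v1g2 to Atp6v1g1 (left) and of Atp6v0e2 to Atp6v0e (right) in each library, numbered by replicate, with the mean and SD of each group (n = 3). Ratios of AZ876 replicates 2 and 3 lie below all injury libraries in both panels, and that of AZ876 replicate 1 lies within their range.

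Other forms of pump subunits, outside the set, were listed by their tissue. Atp6v0d2, a form of the d subunit known from osteoclasts and macrophages, was at 13.9, 21.7 and 50.5 CPM with injury and 40.9, 84.7 and 161 CPM with AZ876, giving a log2 fold change of 1.74 ± 0.59 (SE, edgeR adjusted p = 0.330). Its groups overlapped, with AZ876 replicate 1 below injury replicate 3. Atp6v0a4, a form of the a subunit known from kidney, was rare, at 1.42, 0.525 and 1.43 CPM with injury and 4.58, 4.71 and 2.33 CPM with AZ876, which did not overlap. DESeq2 called it (adjusted p of 0.0398), and edgeR did not (0.330). Tcirg1 and Atp6v0a2, further forms of the a subunit, had log2 fold changes of 0.39 and −0.15.

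Other lysosomal genes, listed apart from the 43, were also mostly above 0. Of 23 further hydrolase genes 20 were above 0, with a median log2 fold change of 0.39, and 8 were higher and 0 lower at an unadjusted p under 0.05, where 7.98% of all genes were higher and 6.74% lower. Scpep1, a serine carboxypeptidase gene, was at 54.7 ± 10.8 CPM after injury alone and 85.2 ± 16.5 CPM under AZ876, and Naaa, an acid amidase gene, at 41.0 ± 5.14 and 55.0 ± 6.42 CPM (SD, n = 3 each). Of 20 further membrane protein genes tested 15 were above 0, with a median of 0.19, and the 2 higher and 2 lower at an unadjusted p under 0.05 were close to those shares. Mcoln2, a relative of Mcoln1 known from immune cells, was at 1.99 ± 1.18 and 6.31 ± 3.23 CPM, and Ctns, the cystine transporter gene, at 30.2 ± 4.48 and 41.6 ± 4.90 CPM.

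Genes that sort enzymes to the lysosome had 7 of 9 above 0, with a median of 0.26. M6pr, a mannose 6-phosphate receptor gene, averaged 164 ± 12.0 CPM after injury alone and 198 ± 28.1 CPM under AZ876 (SD, n = 3 each). Relatives and upstream regulators of Tfeb had 11 of 17 above 0, with a median of 0.08. Tfec, a relative of Tfeb known from macrophages, was at 0.939 ± 0.943 and 3.74 ± 1.49 CPM, and Rptor, a subunit gene of the mTOR complex that restrains TFEB, at 61.3 ± 7.36 and 47.6 ± 4.90 CPM. No gene of these 5 lists passed edgeR's test over all genes, and Atp6v0a4 was the only one that DESeq2 called.

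Several members share their place in the genome with another gene, and the strand setting of the counting is not given in the sources used here. On the opposite strand, Ctsa overlaps Pltp, whose mean count was 57.1% of its own, Atp6v1e1 overlaps Slc25a18 (54.6%), Idua overlaps Dgkq (53.8%), Sgsh overlaps Card14 (31.5%) and Ppt1 overlaps Cap1 (154%). Cd63 has a listed pseudogene, Cd63-ps, with a mean of 612 counts per library. Values of these 6 genes are less certain for that reason.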

How the data were processed

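Per the file headers, the authors deposited raw read counts per gene in 1 table with a column per library, not normalised and not pooled. Per the submitters' processing notes, tools included HISAT2 2.1.0 and fastp 0.23.0. Counter, strand setting, genome build and annotation: not given in the sources used here. Of 57010 rows, 148 symbols stood on more than 1 row with identical counts, and 1 row each was kept (56859 genes). edgeR 4.0.16 in R 4.3.3 removed low counts with filterByExpr (17599 genes left), scaled libraries by TMM and fitted the robust quasi-likelihood model of AZ876 against injury with no covariate. Adjustment was by Benjamini-Hochberg over all genes tested, with a threshold of 0.05. Each SE was derived from the fold change and its F statistic. Alternatives were RLE scaling, no filter, DESeq2 1.42.0, limma-voom (limma 3.58.1), a replicate block and leaving out each library. Scripts were tested on simulated counts in which 200 genes were changed. There edgeR called 4.29% of the genes given the smallest change and 88.7% of those given the largest. Of its 95 calls 8 were false, and of the 146 calls of DESeq2 39 were false. Small changes would thus mostly be missed by edgeR, and genes that only DESeq2 called are less certain. Log2 CPM used a prior count of 2. No pair of libraries agreed within sampling noise (chi-square per degree of freedom of at least 13.1). As the labels name no separate animals, p-values reflect only how these samples varied, which may be technical.

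Members and lists were chosen with earlier results of these data known. Values in every library are given for members with an unadjusted p under 0.05, the 2 of smallest p in each class or pump part, Tfeb and both pairs of subunit forms, and the 2 genes of smallest p in each other list are named, mostly by group mean and SD, with fewer named from marker lists. A gene that this rule names is not reported here. Any other gene was chosen after its values were seen. Promoter windows came from RefSeq on GRCm38.p6, whose coordinates were not mixed with those of the table.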

Additional observations from a re-analysis of the deposited data

How the results depend on the processing

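The medians of the 3 classes kept their sign under every alternative run: 0.35 to 0.37 for hydrolases and cofactors, 0.44 to 0.46 for membrane proteins and −0.13 to −0.12 for the pump with RLE scaling, no filter, DESeq2, limma-voom or the replicate block. Leaving out 1 library moved them over 0.18 to 0.54, 0.25 to 0.60 and −0.17 to −0.07, lowest for the first 2 classes without AZ876 replicate 3 and highest without AZ876 replicate 1. The count of members called was 0 to 1 and that of all genes 0 to 363 when 1 library was left out, with 1 and 363 without AZ876 replicate 1. Over all genes, edgeR called 6 with no filter and 2 with the replicate block, and DESeq2 called 177, while members stayed at 0 under these 3. Members whose groups did not overlap, 1 with all libraries, numbered 1 to 34 when 1 library was left out. The 34, of which 22 were higher and 12 lower, came without AZ876 replicate 1. There the groups did not overlap for 24.3% of all genes on the higher side and 23.7% on the lower side. With all libraries these shares of all genes were 10.2% and 8.64%.

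In 8 of the 43 members the log2 fold change turned sign when a library was removed, namely Neu1, Ids, Atp6v0b, Atp6v1a, Atp6v1f and the next 3. Atp6ap2 ranged over −0.046 to 0.095, being −0.037 with injury replicate 1 removed and −0.0040 with injury replicate 3 removed. Atp6ap1 ranged over −0.017 to 0.045 and Atp6v1g1 over −0.021 to 0.27, both lowest without AZ876 replicate 3. The ratio of Atp6v1g2 to Atp6v1g1 differed by −1.27 to −0.54 and that of Atp6v0e2 to Atp6v0e by −0.98 to −0.48 on the log2 scale. Same-numbered libraries shared only a number: their deviations from the group means correlated at 0.39, −0.14 and 0.32, and not every library correlated best with its own number. With such libraries paired, the exact sign-flip p of both ratios was 0.25, the smallest that 3 pairs allow, at differences of −0.86 and −0.71. Where a cause is not given, it was not tested.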
